A study of Mus musculus with 2 samples.

Results

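The LIF receptor, JAK and STAT3 pathway was examined through 9 genes, which were taken as the rows whose symbol was Lifr, Il6st, Jak1, Jak2, Stat3, Ptpn11, Socs3, Pim1 or Pim3. All 9 were found among the 23889 symbols of the series, and all 9 reached an FPKM of 1 in both libraries. FPKM scales the fragments of a gene to its length and to the mapped fragments of the library, so levels can be compared between genes. The RNA came from E14 cells, a feeder-free mouse embryonic stem cell (mESC) line that the labels trace to a 19/Ola mouse. Both cultures were kept on gelatin in medium with 15% FBS and 1000 U/ml LIF, were transfected with shRNA and were harvested 3 days later. The culture labelled Normal received a control shRNA (shCon) and the culture labelled USP21 knockdown received an USP21 shRNA (shUSP21). Each group is 1 library of total RNA from transfected cells, the labels do not say which USP21 shRNA was used, and the share of cells that took it up is not given. With 1 library per group no difference could be tested, so every difference is described without a p-value, and chance differences between 2 cultures or 2 preparations cannot be told apart from it.

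LIF holds mESCs in self-renewal. It binds a receptor made of LIFR and gp130, the protein encoded by Il6st, which carry the tyrosine kinases JAK1 and JAK2 on their cytoplasmic tails. The kinases phosphorylate the receptor and then STAT3, which dimerizes and enters the nucleus. STAT3 switches on genes that include Socs3, whose product shuts the receptor down, and the serine/threonine kinase genes Pim1 and Pim3. SHP2, encoded by Ptpn11, docks on gp130 at the site where SOCS3 also binds, and passes the signal on to ERK. The study asked whether this pathway controls USP21. The comparison here goes the other way and asks how the RNAs of the pathway stood after USP21 knockdown with LIF present.

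The shUSP21 library had the lower Usp21 value, as its label says. The FPKM of Usp21 was 26.2 in shCon cells and 3.49 in shUSP21 cells, which was 7.51-fold lower. On the scale used from here on, log2((FPKM shUSP21 + 0.1)/(FPKM shCon + 0.1)), this was -2.87, and 0.050% of the 11927 genes that reached an FPKM of 1 in either library (the genes tested) had a lower value. Over these genes the median log2 ratio was 0.0031, and the middle 50% lay between -0.22 and 0.24.

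Properties of the libraries touch every value. The sum over all symbols was 613617 FPKM for shCon and 543206 for shUSP21, and scaling both to the same sum raised the median log2 ratio of the genes tested to 0.18. The files give no counts. Among 1439 genes under an FPKM of 0.1 in both libraries, the most frequent ratio, read as steps of single fragments, puts shCon deeper by about 1.24 times. This reading holds only if the values were not scaled between libraries, which is not given. Across genes, which are not independent replicates, the log2 ratio went up with transcript length (Spearman rho 0.32 over 11378 genes), from a median of -0.16 in the shortest 20% of genes to 0.17 in the longest 20%. All 7 stem cell markers looked up were high, led by Dppa5a at an FPKM of 1849 in shCon and 1285 in shUSP21 cells. All 7 had log2 ratios below 0 (median -0.27), while 50.4% of the genes tested lay above 0. They ran from -0.86 for Nanog, at an FPKM of 467 and 258, to -0.14 for Sox2. After scaling to the same sum Sox2 was at 0.033. Of 8 fibroblast markers 6 were under 1 in both libraries, Lum was listed at 0 in both, and the summed FPKM was 20.7 and 10.3, most of it from Thy1 at 17.3 and 5.29. The other marker above 1, Pdgfra, went the opposite way, at 2.48 and 4.22. Of 5 leukocyte markers 4 were under 1 in both, with Ptprc at 0.0069 and 0.0090 and a summed FPKM of 15.3 and 19.7, most of it from Cd68 at 14.3 and 18.8. The 5 endoderm markers summed to 43.0 and 37.8, led by Dab2 at 23.1 and 16.4, with 2 log2 ratios above 0 (Gata6, at 8.60 and 10.8, and Gata4) and 3 below. In bulk RNA fewer cells of a type and less RNA per cell cannot be told apart, and the part of other cells in the results was not tested.

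The receptor and kinase genes had higher values after knockdown, and Stat3 and the STAT3 target genes were mixed. Lifr, Il6st, Jak1, Jak2 and Ptpn11 all had higher FPKM in shUSP21 cells, by 1.20-fold to 1.53-fold. Of all genes tested 50.4% had a log2 ratio above 0. After the correction for transcript length described below these 5 members were also above 0, from 0.076 to 0.37. Pim1 was 1.20-fold higher. Stat3, Socs3 and Pim3 were slightly lower in the deposited values, and above 0 after scaling to the same sum. No member was changed 2-fold, while 4.33% of the genes tested were. At 1.5-fold, 1 of 9 members was past the limit, Il6st, on the higher side, where 7.77% of the genes tested lay, and none of the 9 was past it on the lower side, where 6.46% lay. With 9 members these counts are near the background and do not set the members apart. The median log2 ratio of the members was 0.26, against 0.0031 over all genes tested.

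**Figure D1:**
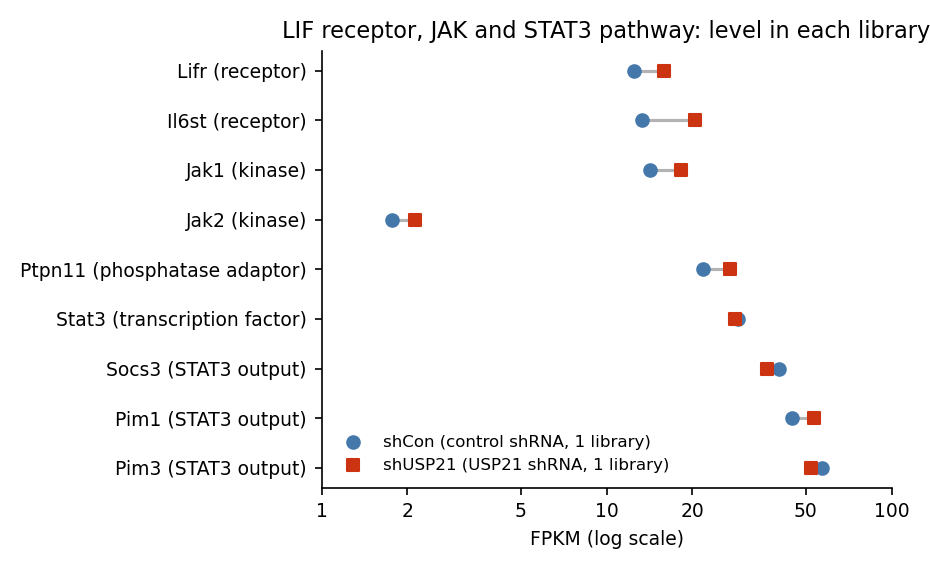
FPKM (log scale, horizontal) of the 9 members in the shCon library (circles) and the shUSP21 library (squares), 1 library each, with no error bars because there are no replicates. In the deposited values the squares lie to the right for Lifr, Il6st, Jak1, Jak2, Ptpn11 and Pim1, slightly to the left for Stat3, Socs3 and Pim3, and the widest gap is that of Il6st, from 13.3 to 20.5.

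Of the receptor subunits, Il6st had the largest difference among the members. Il6st (chromosome 13 of GRCm38, 17 exons) encodes gp130, a signalling subunit shared by cytokines of the interleukin 6 family. Its FPKM was 13.3 in shCon and 20.5 in shUSP21 cells, a log2 ratio of 0.61, and 92.9% of the genes tested had a lower one. The value lies just above the 1.5-fold limit, and it was 0.58, just under it, with a pseudocount of 1 in place of 0.1. Lifr (chromosome 15, 19 exons), the subunit that gives the receptor its specificity for LIF, had an FPKM of 12.5 and 15.9 and a log2 ratio of 0.35. The receptor subunits were thus at similar levels. Within the shCon library there was 1.07 times as much Il6st as Lifr, and within the shUSP21 library 1.29 times, a comparison that does not depend on how the libraries were scaled to each other.

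Both genes have long transcripts, and long transcripts had higher ratios in these libraries. The transcript of Lifr has 9655 bases and that of Il6st 8678 in GENCODE M21, against a median of 2905 for the genes tested. A lowess curve of the log2 ratio on transcript length stood at 0.27 at the length of Lifr and at 0.25 at that of Il6st. Measured from this curve, Lifr had 0.076 and Il6st 0.37. The value of Lifr was thus close to what the curve gives at its length, while that of Il6st stood above it. Whether the trend comes from the cells or from the libraries was not tested.

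**Figure D2:**
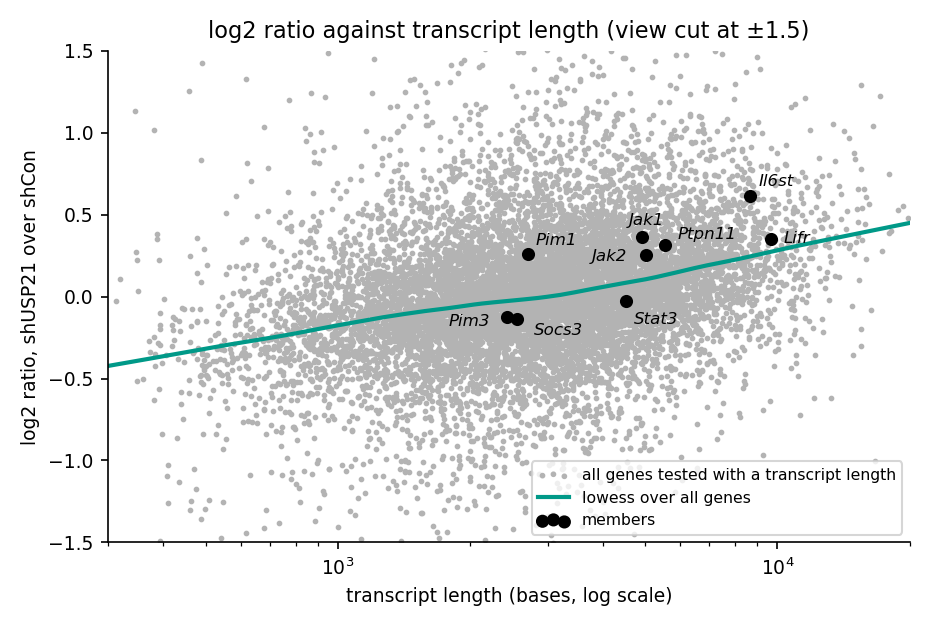
Log2 ratio (vertical, shUSP21 over shCon, FPKM + 0.1) against transcript length in bases (horizontal, log scale) for 11378 genes (grey), with their lowess curve (line) and the 9 members (black, labelled). Genes past 1.5 in either direction or outside the length range lie beyond the view. Lifr at 0.35 sits close to the curve at 0.27. Il6st, Pim1, Jak1, Ptpn11 and Jak2 lie above the curve and Stat3, Socs3 and Pim3 below it.

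The JAK kinases differed widely in level and little in their ratio between libraries. Jak1 (chromosome 4, 25 exons), the kinase that gp130 signalling needs most, had an FPKM of 14.2 in shCon and 18.3 in shUSP21 cells, a log2 ratio of 0.36. Jak2 (chromosome 19, 25 exons) had an FPKM of 1.77 and 2.13, the lowest of the members in both libraries, and 10.7% of the genes tested were lower in shCon cells. Its log2 ratio was 0.26. Jak1 stood at 8.01 times Jak2 in the shCon library and at 8.56 times in the other, so the balance between them hardly moved. Corrected for transcript length, the values were 0.26 for Jak1 and 0.15 for Jak2.

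Ptpn11 (chromosome 5, 16 exons), whose product SHP2 is the phosphatase and adaptor that links gp130 to ERK, had an FPKM of 21.8 in shCon and 27.2 in shUSP21 cells. Its log2 ratio was 0.32, or 0.19 after the length correction. Its difference was close to that of Jak1, since Jak1 stood at 0.651 times Ptpn11 in the shCon library and at 0.673 times in the other.

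Stat3 (chromosome 11, 24 exons), the transcription factor of the pathway, had an FPKM of 28.8 in shCon and 28.2 in shUSP21 cells. Its log2 ratio of -0.029 was the smallest of the members in absolute size, and 46.0% of the genes tested had a lower value. Its sign is not firm, since scaling to the same sum made it 0.15, under the median of 0.18 that the genes tested then had. Stat3 RNA does not show the activity of the protein, which depends on phosphorylation. Stat3 stood at 2.03 times Jak1 in the shCon library and at 1.54 times in the shUSP21 library.

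Socs3, Pim1 and Pim3 are known STAT3 target genes among the members, and the activity of STAT3 was not measured. They were the 3 highest members in both libraries. Socs3 (chromosome 11, 2 exons), the feedback inhibitor of gp130, had an FPKM of 40.2 in shCon and 36.6 in shUSP21 cells. Its log2 ratio was -0.13, and 33.3% of the genes tested had a lower value. Its product acts on the receptor, and its RNA stood at 3.01 times that of Il6st in the shCon library and at 1.79 times in the other. The log2 change of this ratio was -0.75, in a pair that joins the lowest and the highest log2 ratio of the members. Their transcripts also differ in length, and the length-corrected values were -0.11 for Socs3 and 0.37 for Il6st. Socs3 RNA stayed closer to that of Stat3, at 1.40 times and 1.30 times.

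The promoter of Socs3 held the only match among the members to TTCNNNGAA, the palindrome that STAT dimers bind, which reads the same on both strands. The windows, from RefSeq (GRCm38.p6), run from 250 bases before to 50 bases after the start site. The 9 members have 11 such windows, since Lifr and Pim1 have more than one, and 1 of the 11 held a match. Over all genes, 2726 of 32851 windows held one, which is 8.30%. With 11 windows, 1 match is near this share and does not set the members apart. The match is shown on the minus strand of chromosome 11, at chr11:117969502-117969530, with its 9 bases in capitals and 10 bases on either side.
Socs3: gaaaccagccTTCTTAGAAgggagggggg
It begins 154 bases before the start site of this window, which itself lies 180 bases upstream of the start of the basic GENCODE transcript of Socs3. The window therefore ends before the GENCODE start, and the bases next to that start were not searched. The windows of Pim1, Pim3 and Stat3 held no match, which says only that these letters are not in those windows.

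Pim1 and Pim3 encode related kinases that favour survival and self-renewal, and they changed places. Pim1 (chromosome 17, 6 exons) had an FPKM of 44.7 in shCon and 53.5 in shUSP21 cells, a log2 ratio of 0.26. Pim3 (chromosome 15, 6 exons) had 56.9 and 52.1, a log2 ratio of -0.13. Pim3 was therefore the highest member in the shCon library, at 1.27 times Pim1, and the second highest in the other, at 0.974 times Pim1. Their transcripts are of similar length, at 2698 bases for Pim1 and 2427 for Pim3, and the length-corrected values were 0.28 and -0.099. The exons of Pim1 overlap those of Gm26885, a gene on the opposite strand, over 17.4% of their bases. Whether the authors counted fragments by strand is not given in the sources used here, and Gm26885 has no row in the files, so fragments of the pair cannot be told apart. Of the other members, only Jak1 overlapped another gene, over 0.082% of its exon bases, and 0.73% was the largest share of 31-base words that any of them had in common with other genes.

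The order of the members hardly differed between the libraries. In shCon cells the levels ran from Pim3 through Pim1, Socs3, Stat3, Ptpn11, Jak1, Il6st and Lifr down to Jak2. In shUSP21 cells only Pim3 and Pim1, and Jak1 and Il6st, had traded places. No spread could be set against these steps. The summed FPKM of Lifr, Il6st, Jak1, Jak2 and Ptpn11 was 63.6 and 83.9, while that of Socs3, Pim1 and Pim3 was 142 in both libraries. In the sum of 142, Pim1 was higher in shUSP21 cells and Socs3 and Pim3 were lower. The first group has the longer transcripts, with a median of 5535 bases against 2552. Its median log2 ratio was 0.35 as deposited and 0.19 after the length correction, against -0.13 and -0.099 for the second group. Scaled to the same sum, the medians were 0.53 and 0.050.

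**Figure D3:**
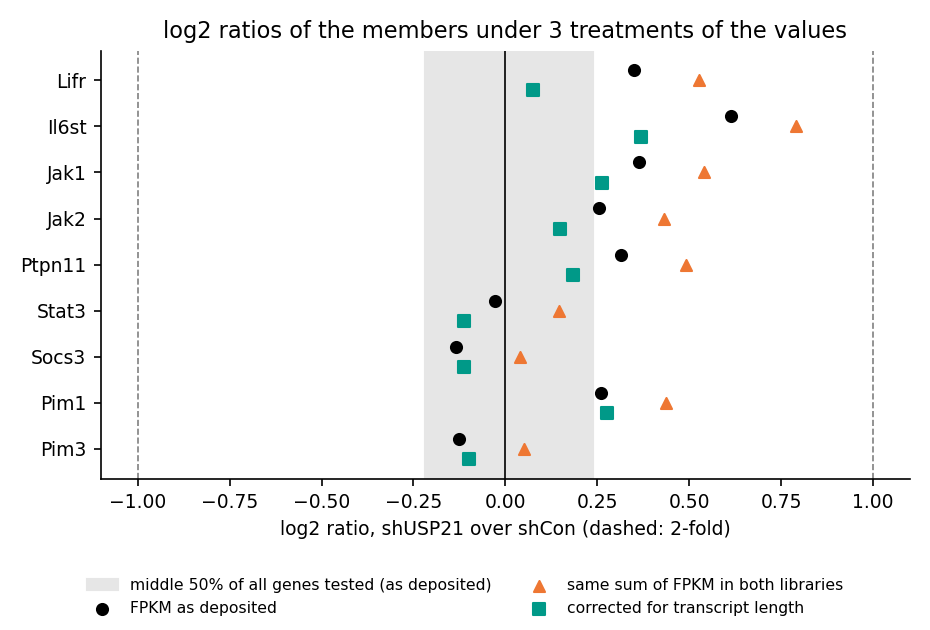
Log2 ratio (horizontal, shUSP21 over shCon, FPKM + 0.1) of each member from the deposited FPKM (circles), with both libraries scaled to the same sum (triangles) and after the length correction (squares), with no error bars because each group is 1 library. The grey band holds the middle 50% of the genes tested in the deposited values, so it applies to the circles only. With both libraries at the same sum, the median of the genes tested was 0.18. No member reaches the dashed 2-fold lines. Scaling moves Stat3, Socs3 and Pim3 from below 0 to above it.

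Scaling decides the sign of the small values. With both libraries at the same sum of FPKM all 9 members were above 0, from 0.041 for Socs3 to 0.79 for Il6st. Relative to the median of 0.18 that the genes tested then had, Socs3, Stat3 and Pim3 still lay below it and the other 6 members above. After the length correction 6 members lay above 0 and 3 below, with a median of 0.15.

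The other genes of the pathway were taken from lists by role, 55 genes in all. Of these 45 reached an FPKM of 1 in either library. Among the 45, 2 were at least 1.5-fold higher in shUSP21 cells, 4.44% against 7.77% of the genes tested, and 3 at least 1.5-fold lower, 6.67% against 6.46%. Their median log2 ratio was 0.078.

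Cytokines that signal through gp130 were low. Of 9 genes 3 reached an FPKM of 1, and none of the 3 was past 1.5-fold, against 14.2% of the genes tested. Lif itself, which the medium supplied as protein, was the highest, at an FPKM of 2.97 in shCon and 2.60 in shUSP21 cells. Cntf had 1.42 and 2.00, a log2 ratio of 0.46. Il6 and Il27 were listed at 0 in both.

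Among receptor subunits that pair with gp130 for other ligands, 3 of 5 reached an FPKM of 1, 1 higher and 1 lower by 1.5-fold or more. Of all genes tested, 7.77% were that much higher and 6.46% that much lower. With 3 genes these counts do not set the list apart. Cntfr, the ligand-binding subunit for CNTF, was the highest of the 3 subunits, at an FPKM of 13.5 in shCon and 29.6 in shUSP21 cells. Its log2 ratio was 1.13, and 98.4% of the genes tested had a lower one. It was past 2-fold on the higher side, as were 2.3% of the genes tested. In shUSP21 cells its level was above those of Il6st and Lifr, and in shCon cells it was close to both. Il6ra, the subunit that binds interleukin 6, went the other way, from 1.98 to 1.07, a log2 ratio of -0.84. The exons of Il6ra overlap an opposite-strand gene over 6.22% of their bases, while those of Cntfr overlap none.

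None of the other 8 JAK and STAT genes was past 1.5-fold, against 14.2% of the genes tested. All 8 reached an FPKM of 1 (median log2 ratio 0.10). Stat6 was the highest at 10.5 and 10.6. Stat5a had the largest difference, from 2.08 to 1.54, a log2 ratio of -0.42. No other STAT gene came near the level of Stat3 in either library.

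The 15 inhibitors were likewise all measured and none was past 1.5-fold, against 14.2% of the genes tested. Their log2 ratios ran from -0.48 to 0.21, with a median of 0.078. These inhibitors include the other SOCS genes, the PIAS genes, whose products hold back STATs in the nucleus, and tyrosine phosphatases. Pias2 was the highest, at an FPKM of 58.8 in shCon and 52.2 in shUSP21 cells. Socs2, a feedback inhibitor of growth hormone and STAT5 signalling, had the lowest ratio, from 20.1 to 14.4, a log2 ratio of -0.48.

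Adaptors and a SRC kinase that work beside SHP2 went both ways. Of 5 genes 4 reached an FPKM of 1, with a median log2 ratio of 0.16. Of the 4, 1 was at least 1.5-fold higher, as were 7.77% of the genes tested, and 1 at least 1.5-fold lower, as were 6.46%. With 4 genes these counts do not set the list apart. Gab1, the docking protein that SHP2 binds, had an FPKM of 23.8 in shCon and 37.7 in shUSP21 cells, a log2 ratio of 0.66, or 0.56, just under the 1.5-fold limit, after the length correction. Yes1, a SRC family kinase, had 9.82 and 5.52, a log2 ratio of -0.82. Grb2, the adaptor that joins SHP2 to SOS1, was the highest of the list and differed little, at 46.1 and 41.7. Yes1 overlaps an opposite-strand gene over 13.6% of its exon bases and Gab1 over 5.34%.

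Genes known to respond to LIF in mESCs were split in direction. Of 13 genes 12 reached an FPKM of 1, 6 with a log2 ratio above 0 and 6 below (8 and 4 after scaling to the same sum), and the median was -0.064. Tfcp2l1, a transcription factor that LIF and STAT3 induce and that can stand in for them in self-renewal, was the 1 gene past 1.5-fold. It lay on the lower side, as did 6.46% of the genes tested. It had an FPKM of 59.0 in shCon and 30.2 in shUSP21 cells, a log2 ratio of -0.97. Its transcript is long, at 9269 bases, where the lowess curve stood at 0.26, and its length-corrected value was -1.23. Klf5, which supports self-renewal, was the highest of the list, at 346 and 252, a log2 ratio of -0.46. Klf4, another target of STAT3, differed little, at 85.0 and 76.5, and Gbx2, which STAT3 also induces, had 28.2 and 35.8.

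**Figure D4:**
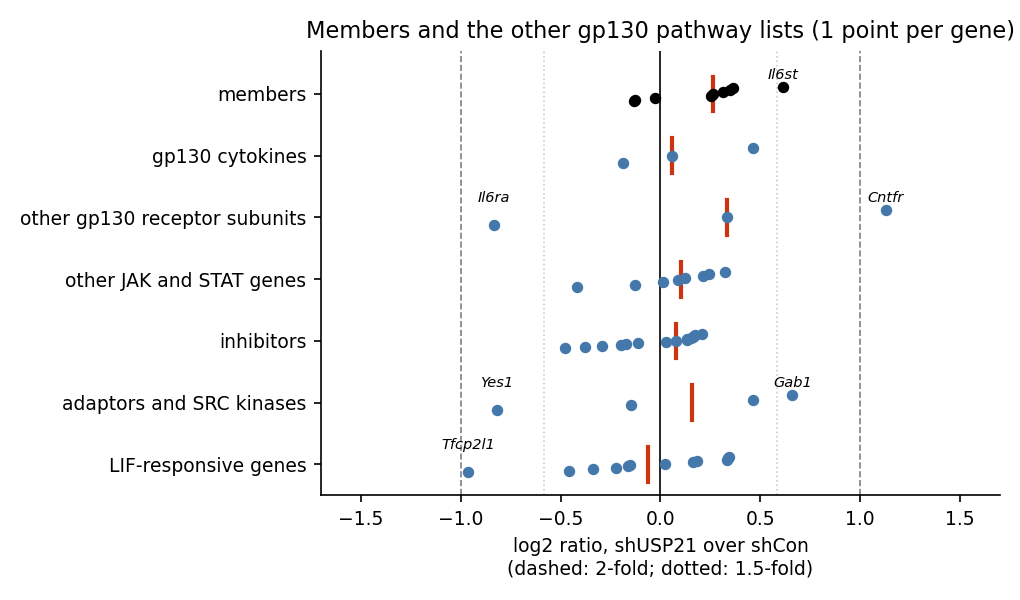
Log2 ratio (horizontal, shUSP21 over shCon, FPKM + 0.1) of the 9 members and of the 45 listed pathway genes that reached an FPKM of 1, 1 point per gene, by list (vertical), with the median of each list as a vertical bar. Genes past 1.5-fold (dotted lines) are named, and only Cntfr at 1.13 lies past 2-fold (dashed lines).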

How the data were processed

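Each of the 2 libraries, 1 per group, has a table from the authors that lists gene symbols with their FPKM. The submitters' processing notes name CASAVA 1.8.2, TopHat2 2.0.14, Cufflinks 2.2.1 and the build mm9, without their roles. The gene annotation, the strand setting and any scaling between libraries are not given in the sources used here, and this sequencing is not covered in the paper's methods.

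For all 23889 symbols a log2 ratio of shUSP21 over shCon was computed, after 0.1 was added to both deposited FPKM values. The 11927 genes that reached an FPKM of 1 in either library formed the background, and a gene was counted as changed at 2-fold or 1.5-fold. No test was run, since neither group has replicates. The files hold no counts, so no interval or detection limit was computed. Genes were matched by symbol to GENCODE M21 (GRCm38, 1 basic transcript per gene, the longest coding sequence), and 95.4% of the genes tested had a length. The files' build differs, so coordinates (GRCm38) are given only for the Socs3 promoter sequence, and chromosomes for the members. Promoters came from RefSeq (GRCm38.p6). The length correction subtracted a lowess fit (span 0.3).

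The members and lists were chosen with earlier results of these data known. Genes named are the members, Usp21, listed pathway genes past 1.5-fold, and for each pathway list the highest gene and the one with the largest change, with the highest gene of each marker list. Other genes outside this rule are named (Il6, Il27, Lum, Ptprc, Pdgfra, Gata4, Gata6, Nanog, Sox2, Klf4, Gbx2 and those under the other observations), chosen after their values were seen. A few listed genes are not reported here and were left out of the list counts. The scripts were tested on simulated data. Values were computed in Python 3.11.15 with pandas 2.3.3 and numpy 2.4.6, the lowess fit with statsmodels 0.14.6, correlations with scipy 1.17.1 and plots with matplotlib 3.10.9.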

Additional observations from a re-analysis of the deposited data

How the results depend on the processing

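No paired analysis was possible because each group has 1 library. A log2 ratio was counted as moved when it shifted by at least 0.1. Setting the median to 0 and a pseudocount of 0.01 moved none of 25 results each. Scaling both libraries to the same sum of FPKM turned the sign of Stat3 (0.15), Socs3 (0.041) and Pim3 (0.050) and raised Lifr to 0.53, Il6st to 0.79, Jak1 to 0.54, Jak2 to 0.43, Ptpn11 to 0.49, Pim1 to 0.44, the median of the members to 0.44 and Usp21 to -2.71. The count of cytokines past 1.5-fold became 1 and that of adaptors and SRC kinases went from 2 to 3. The length correction moved Lifr to 0.076, Il6st to 0.37, Jak1 to 0.26, Jak2 to 0.15, Ptpn11 to 0.19 and the median to 0.15. It left 0 members and 1 adaptor or SRC kinase gene and put 1 cytokine past 1.5-fold, and 1 LIF-responsive gene past 2-fold. Of the genes with a length, 13.0% were then past 1.5-fold and 3.7% past 2-fold. Both changes together, added after the data were seen, gave 0.076 for Lifr, 0.37 for Il6st, 0.15 for Jak2, 0.19 for Ptpn11 and 0.15 for the median. With a pseudocount of 1 Usp21 had -2.60, 0 members were past 1.5-fold, and 1 other receptor subunit was. The share of the genes tested past 1.5-fold was then also lower, at 9.38%. With no filter, or a filter at FPKM 0.1, 1 cytokine and 2 LIF-responsive genes were past 1.5-fold. Over all genes the share was 13.6% with no filter and 19.0% with the filter at FPKM 0.1. With a filter at FPKM 5, 1 other receptor subunit was past 1.5-fold, against 10.2% of the genes that passed this filter. In no setting was a member past 2-fold. The share of genes tested past 1.5-fold was 14.2% as reported, with 7.77% higher and 6.46% lower, and 18.1% after scaling to the same sum, with 14.1% higher and 3.97% lower. The unknown depth limits the low values most, Jak2 among the members.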

Other observations

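A list drawn up after the values of Cntfr had been seen covers related genes, and it is given as values only. Of 11 receptor genes of other cytokines that use JAK1 or JAK2, 7 reached an FPKM of 1, with a median log2 ratio of -0.17. The growth hormone receptor gene Ghr had 0.363 in shCon and 1.21 in shUSP21 cells, the erythropoietin receptor gene Epor had 1.21 and 0.761, and Il10rb had 2.82 and 1.59. Ghr and Epor are low, and each reached an FPKM of 1 only in the library where it was higher. The subunits of the type I interferon receptor went opposite ways. Ifnar1 had an FPKM of 6.92 and 9.78 and Ifnar2 13.4 and 9.49, log2 ratios of 0.49 and -0.50, so Ifnar2 was the higher of the pair in the shCon library and the lower by a small margin in the other.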
